A study of Mus musculus with 24 samples.

Results

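Stem cells and transit-amplifying (TA) cells sorted from the small intestinal crypts of the same 4 control mice were compared by RNA-seq, 4 libraries of each kind among 24 libraries in all. Members were chosen by their labels: the genotype Setd1aFC/+; Lgr5-eGFP-CreERT2, written het here, and the fraction named stem or TA. The question was which genes separate these neighbouring compartments of the crypt in mice whose Setd1a, an H3K4 methyltransferase gene, can be deleted on 1 allele only. The series also holds a Paneth cell fraction of the same animals and all 3 fractions of 4 knockout mice, Setd1aFC/FC; Lgr5-eGFP-CreERT2, written hom.

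Lgr5 marks the crypt base columnar cell, the stem cell that sits between Paneth cells at the bottom of the crypt and renews the epithelium. Wnt ligands, amplified there by R-spondins that bind Lgr-family receptors, keep these cells in the stem state. Their daughters move up as TA cells, divide quickly and commit: Notch signalling holds cells on the absorptive path, while cells that escape it express Atoh1 and become goblet, Paneth or enteroendocrine cells.

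All mice, controls included, received tamoxifen, 1 mg on each of 3 days, and tissue was taken 4 days after induction. CreERT2 is driven by the Lgr5 gene, so that recombination starts in Lgr5+ cells, and control cells in which it acted, or that descend from them, lose 1 Setd1a allele. Dissociated crypt cells were stained for CD24, EpCAM and CD45 and for dead cells before sorting; the gates, and whether GFP was one of them, are not given in the sources used here, so Lgr5, Cd24a, Epcam and Ptprc are shown as checks of the sort and not as results. Ages and the number of cells per library are not given either. Values of 4 libraries always follow the order of the animals BN44, BO27, BO58 and BP03, in CPM, counts scaled to library size by TMM, and the 4 animals are the replicates.

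Depth was similar in both fractions, at 28194410 to 47052856 gene counts in the stem libraries and 26573471 to 39759728 in the TA libraries. Genes with at least 10 counts numbered 15648 to 17126 in stem libraries and 15812 to 16421 in TA libraries. The first principal component of log2 CPM held 30.7% of the variance and placed the 4 stem libraries on one side and the 4 TA libraries on the other; the second, with 16.1%, ordered the animals, with BN44 at one end and BP03 at the other in both fractions. BN44 stood apart by immediate early genes, whose summed level was 7572 CPM in its stem library and 6465 CPM in its TA library, against 2406 to 3007 CPM in the other stem libraries and 1893 to 3472 CPM in the other TA libraries. Its part in the results was not tested other than by leaving the animal out; calls that this ended are named beside the gene.

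Lgr5 (ENSMUSG00000020140, chr10:115450311-115587780, mm10) was checked against the labels first, with 159, 194, 192 and 184 CPM in stem and 14.9, 11.01, 6.35 and 6.65 CPM in TA libraries. Every stem library was above every TA library, and the TA values, though low, were not 0. Rgmb, a co-receptor for BMP ligands and the second marker of the fraction (ENSMUSG00000048027, chr17:15803188-15831039), measured 284, 277, 289 and 297 CPM in stem and 57.7, 55.4, 70.2 and 47.8 CPM in TA libraries. The groups were again separate, and the stem values lay within a narrow band. Epcam was at 1508 to 2684 CPM in stem and 1942 to 2715 CPM in TA libraries (adjusted p = 0.171), and Cd24a at 362 to 660.3 CPM in stem and 234 to 501 CPM in TA libraries (log2 fold change 0.58, adjusted p = 0.012; the call was lost without BO27 or BO58). Ptprc, which encodes CD45, had 37 counts over the 4 stem libraries and 21 over the 4 TA libraries. Immune markers summed to 8.949 to 20.04 CPM in stem libraries and 8.286 to 16.45 CPM in TA libraries, with 8 of the list's genes passing the low-count filter and Cd3e at 0 counts in all 8 libraries. Stromal and endothelial markers summed to 3.767 to 9.612 CPM in stem and 3.092 to 12.82 CPM in TA libraries. Setd1a was at 4.65, 5.29, 8.20 and 7.95 CPM in stem and 3.998, 7.84, 4.89 and 5.82 CPM in TA libraries (adjusted p = 0.684); a count over the whole gene does not separate the floxed part, so this checks no deletion.

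Of 16182 genes tested, 824 were higher in stem cells and 1024 lower (edgeR quasi-likelihood test with the animal as block, Benjamini-Hochberg adjusted p below 0.05), 5.09% and 6.33% of all genes tested. For 1366 of these 1848 genes no stem value overlapped a TA value. A call itself favours such separation, and the share over all genes tested was not computed, so this count adds no support. At least a 2-fold difference was fitted for 371 of the higher and 433 of the lower genes. Over all genes tested the median log2 fold change was 0.01. The share of higher calls was 44.6%; it was 36.5% when the Paneth libraries of the same animals joined the fit, and 38.1% without BO58. Log2 fold changes below are stem over TA.

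**Figure D1:**
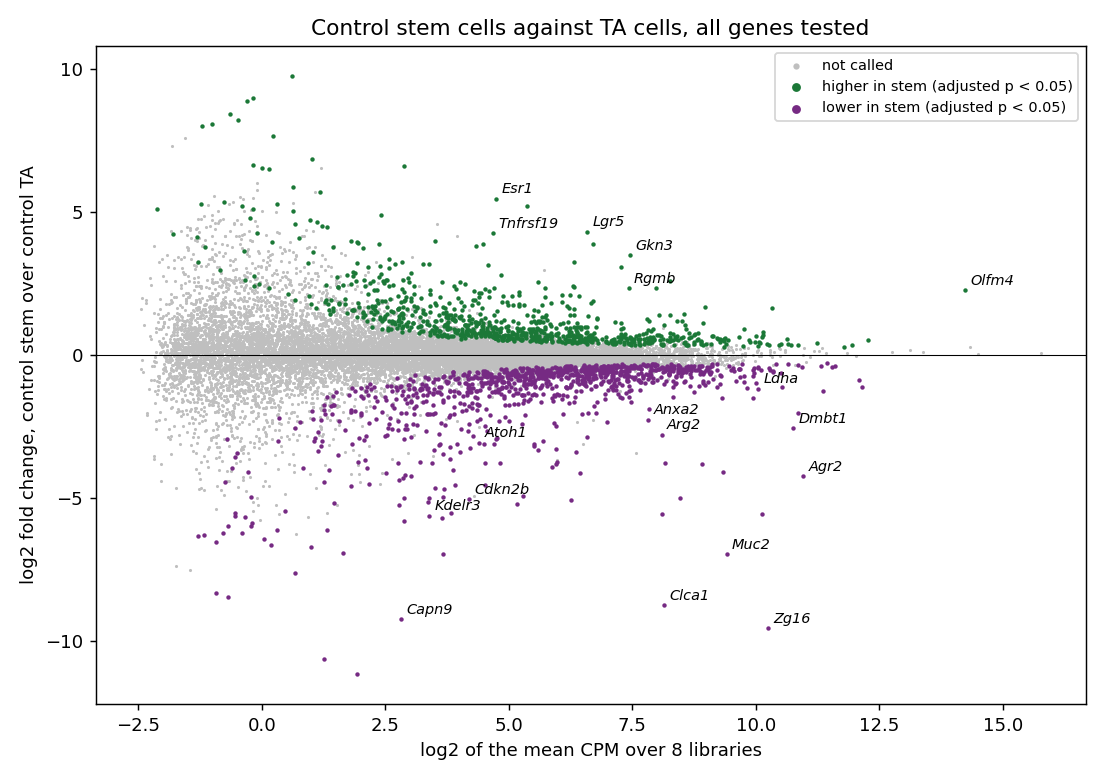
Log2 fold change of stem over TA against log2 mean CPM for the 16182 genes tested in the control animals, with the 824 genes called higher in green and the 1024 called lower in purple. The goblet cell genes Zg16, Clca1 and Muc2 lie farthest below 0 among the abundant genes, and Esr1, Lgr5 and Tnfrsf19 are among the highest above it.

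Genes of the crypt base stem cell formed the clearest group on the stem side. Of 30 listed markers, all tested, 27 were higher in stem cells, none lower, and all 30 had a positive log2 fold change, with a median of 1.84. Their summed level was 34350 to 42500 CPM in stem libraries and 6562 to 11200 CPM in TA libraries. The rule that set the groups used the sort labels and not these genes, but a list of markers of the sorted cell first of all checks the sort.

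Olfm4, a secreted glycoprotein and the most abundant marker of these cells (ENSMUSG00000022026, chr14:79984081-80023139), made up most of that sum, with 36660, 30277, 31329 and 28438 CPM in stem and 8922, 6144, 7196 and 4844 CPM in TA libraries. For Olfm4, the fitted log2 fold change was 2.25 (SE 0.09, adjusted p = 0.00172). The groups were far apart, yet TA cells kept a high level. Ascl2, the transcription factor that holds the stem cell programme, was at 135, 134, 78.6 and 86.2 CPM in stem and 38.03, 31.8, 20.1 and 15.1 CPM in TA libraries (log2 fold change 2.09, SE 0.14, adjusted p = 0.00252), again with no overlap. Smoc2, a matricellular protein, had 592, 559, 395 and 359.8 CPM in stem and 256, 183, 196 and 189.6 CPM in TA libraries, a smaller difference (log2 fold change 1.19, SE 0.13, adjusted p = 0.00494). Soat1, which esterifies cholesterol, had 378, 481, 343 and 485 CPM in stem and 94.1, 91.2, 74.4 and 73.7 CPM in TA libraries. For Soat1, the fitted log2 fold change was 2.33 (SE 0.13, adjusted p = 0.00172). Gkn3, a gastrokine, was at 150.2, 322, 398 and 426 CPM in stem and 20.9, 33.4, 34.5 and 21.5 CPM in TA libraries, lowest of the stem libraries in BN44 but still above every TA library (log2 fold change 3.49, SE 0.25, adjusted p = 0.00252). Fstl1, a secreted follistatin-like protein, and Afap1l1, an actin-associated protein, had log2 fold changes of 3.81 and 2.47 with adjusted p = 0.00172 and 0.00172. The 3 markers without a call were Phgdh (0.89), Ngef (0.55) and Znrf3 (0.56), named here because they were the exceptions. Per kilobase of exon, Olfm4 was at 10694 CPM per kilobase of exon in stem libraries and 2288 in TA libraries, and Lgr5 at 17.8 CPM per kilobase of exon in stem libraries and 0.949 in TA libraries.

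**Figure D2:**
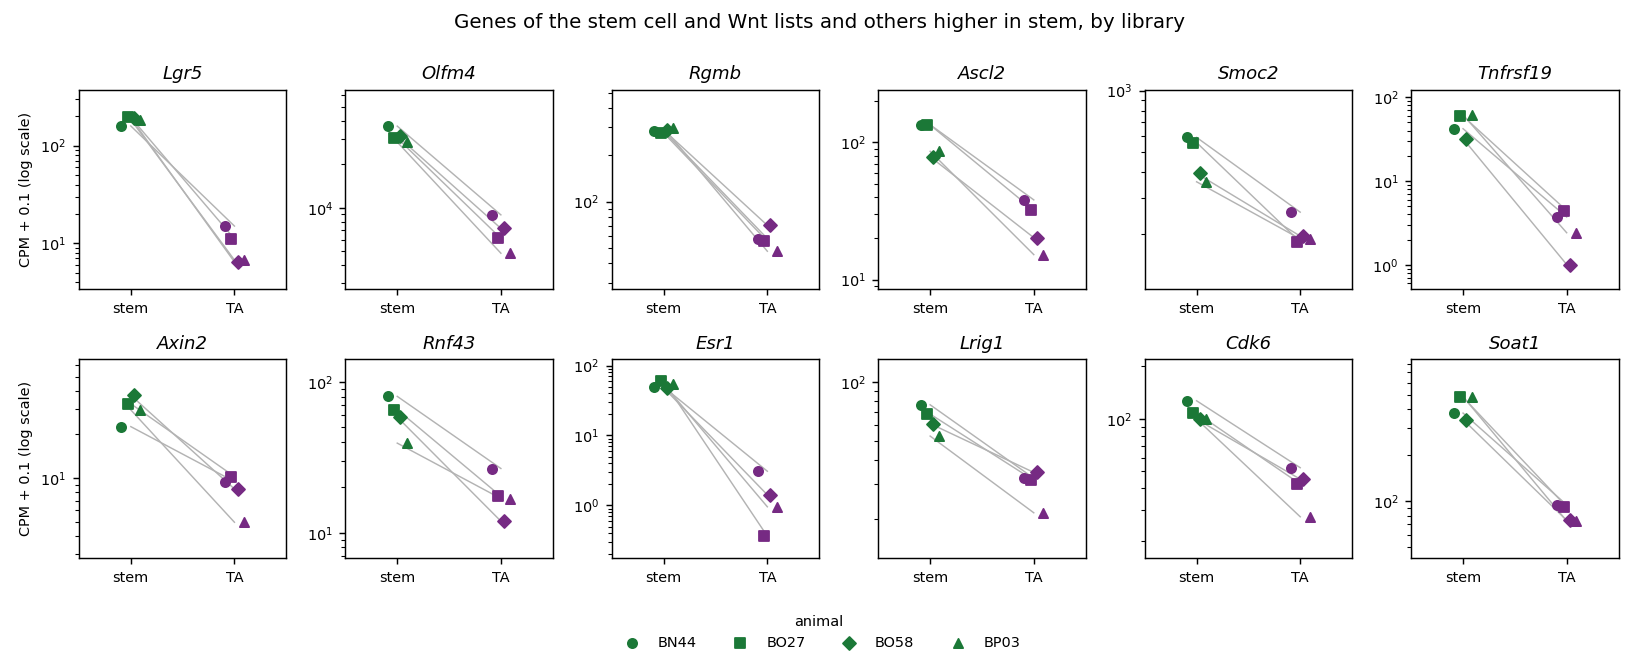
CPM + 0.1 on log axes for 12 genes in the 4 stem (left, green) and 4 TA (right, purple) control libraries, with a line joining the libraries of one animal. In all 12 panels each of the 4 lines falls to the right, and stem and TA points do not overlap.

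Wnt target genes were also higher. Of 28 listed genes 21 were tested, 12 were higher and none lower, with a median log2 fold change of 1.76. When 1 animal was left out, 9 to 11 were higher. This list shares members with the stem cell markers above, among them Ascl2, Tnfrsf19, Rnf43, Sp5 and Lgr5, which is a check of the sort. The counts of these lists are therefore not separate results. Axin2, the feedback scaffold of the destruction complex, had 22.5, 32.5, 37.1 and 29.4 CPM in stem and 9.36, 10.1, 8.31 and 4.86 CPM in TA libraries, with every stem library above every TA library (log2 fold change 1.92, SE 0.24, adjusted p = 0.00808). Rnf43, a ubiquitin ligase that removes Frizzled receptors, was at 80.2, 65.5, 58.4 and 39.2 CPM in stem and 26.6, 17.3, 11.8 and 16.8 CPM in TA libraries. For Rnf43, the fitted log2 fold change was 1.76 (SE 0.19, adjusted p = 0.00526). Tnfrsf19, a TNF receptor family member, had 42.01, 59.5, 31.9 and 61.5 CPM in stem and 3.62, 4.34, 0.908 and 2.31 CPM in TA libraries (log2 fold change 4.24, SE 0.31, adjusted p = 0.00267), and Cd44, an adhesion receptor, 150.3, 149, 169 and 155 CPM in stem and 56.5, 51.8, 47.7 and 27.3 CPM in TA libraries. For Cd44, the fitted log2 fold change was 1.81 (SE 0.19, adjusted p = 0.00505). Nkd1, a Dishevelled-binding inhibitor of the pathway, had 510 counts over the stem libraries and 18 over the TA libraries, a 26.9-fold ratio of pooled CPM with an exact 95% interval of 16.9 to 45.8 for counting error alone; the call over animals was lost without BN44, BO58 or BP03. Some targets were not called: Myc was at 334, 223, 146 and 116 CPM in stem and 153, 115, 106 and 104 CPM in TA libraries, overlapping values (log2 fold change 0.68, adjusted p = 0.0563), and Ephb2 at 17.2, 13.3, 22.02 and 15.6 CPM in stem and 16.4, 17.3, 20.1 and 16.6 CPM in TA libraries (log2 fold change -0.07, adjusted p = 0.833), whereas its relative Ephb3 was higher (log2 fold change 1.99, SE 0.25, adjusted p = 0.00767).

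A TCF/LEF motif was looked for in the RefSeq promoters (GRCm38.p6) of these genes, since TCF factors bind CTTTGAT at Wnt targets. In the 250 bases before the start, on either strand, it was found in 1 of 14 listed Wnt genes with a promoter in the table, Sp5, a zinc finger factor (log2 fold change 2.61, adjusted p = 0.0168, lost without BN44, BO27 or BP03). It was found in 4.12% of 534 promoters of higher genes, 2.11% of 757 promoters of lower genes and 2.35% of 10060 promoters of all genes tested. The stretch around the Sp5 match is shown, with the motif in capitals:
Sp5 (chr2:70474769-70474875, forward strand): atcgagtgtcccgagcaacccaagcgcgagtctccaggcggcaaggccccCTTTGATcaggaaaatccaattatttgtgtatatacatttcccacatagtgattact

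Among the genes of largest increase, at a mean of 5 CPM or more and leaving out predicted genes without an established name, were several outside the marker list. Esr1, the estrogen receptor alpha, had 49.1, 59.3, 47.9 and 53.8 CPM in stem and 2.99, 0.264, 1.32 and 0.857 CPM in TA libraries. For Esr1, the fitted log2 fold change was 5.46 (SE 0.56, adjusted p = 0.00469). Its TA values were close to 0 in all 4 animals and its stem values were close together. Gper1, a G protein-coupled receptor that has been described as responsive to estrogen, was at 10.8, 8.44, 11.4 and 6.86 CPM in stem and 2.28, 0.716, 0.673 and 0.0520 CPM in TA libraries (log2 fold change 3.86, adjusted p = 0.0201), a call lost without BO27 or BO58. Cyp2e1, a cytochrome P450 that oxidises ethanol, had 123, 245, 207 and 203 CPM in stem and 10.7, 23.98, 12.1 and 8.31 CPM in TA libraries. For Cyp2e1, the fitted log2 fold change was 3.89 (SE 0.24, adjusted p = 0.00217). Vav3, a guanine nucleotide exchange factor, was at 42.2, 33.1, 45.9 and 43.9 CPM in stem and 7.69, 1.06, 2.23 and 2.75 CPM in TA libraries. For Vav3, the fitted log2 fold change was 3.89 (SE 0.43, adjusted p = 0.00526). Ccdc3, a secreted protein, and Sectm1a had log2 fold changes of 3.99 and 3.23 with no overlap. Cd1d1, which presents lipids to NKT cells, Esam, an adhesion molecule, Agr3, a disulfide isomerase, and Wdr35, a ciliary transport subunit, were also higher (log2 fold changes 3.36, 3.16, 3.16 and 3.09). Calls of these 4 depended on animals: Cd1d1 lost its call without BN44, BO27 or BO58, Esam without BN44, BO27 or BP03, Agr3 without BO27 or BO58 and Wdr35 without BN44, BO58 or BP03.

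Across all 24 libraries of the series, which share 3 fractions and 8 animals, the genes whose log2 CPM followed Lgr5 most closely were Rgmb (Pearson r 0.956), Sorbs2 (0.951), Myo9a (0.91), Fstl1 (0.91) and Picalm (0.909). These correlations are over libraries of different fractions, were not computed within a fraction, and are given as a description.

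Receptors and ligands of the niche pathways were called in both directions, where 5.09% of all genes tested were higher and 6.33% lower. Among 21 tested Wnt ligands and receptors, 3 were higher and 1 lower (19.05% called), and 1 or 2 higher and 0 or 1 lower with 1 animal left out. Fzd7, the Wnt receptor of the stem cell, had 23.95, 17.9, 23.3 and 16.2 CPM in stem and 7.92, 8.45, 11.2 and 6.68 CPM in TA libraries (log2 fold change 1.25, SE 0.17, adjusted p = 0.00891), and Fzd5 ran the other way with 61.5, 46.8, 48.2 and 56.6 CPM in stem and 88.3, 85.9, 87.5 and 100.2 CPM in TA libraries (log2 fold change -0.77, SE 0.10, adjusted p = 0.00986); Fzd5 lost its call without BO27. In the Notch pathway 1 of 23 genes was higher and 1 lower (8.7% called), and 0 or 1 higher and 0 lower with 1 animal left out. Notch1 was low in both fractions (2.63 to 3.79 CPM in stem and 1.12 to 1.58 CPM in TA libraries, adjusted p = 0.0618), the ligands Dll1 (log2 fold change -0.30, adjusted p = 0.194) and Dll4 (log2 fold change -0.49, adjusted p = 0.537) overlapped between fractions, and so did the target Hes1 (61.5 to 238 CPM in stem and 66.4 to 164 CPM in TA libraries, adjusted p = 0.489). Dtx4, a Deltex family ubiquitin ligase, was higher (log2 fold change 0.93, SE 0.16, adjusted p = 0.0167), a call lost without BN44, BO27 or BO58.

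Of 17 EGF family genes and regulators 2 were higher and none lower (11.76% called), close to the 11.42% called of all genes tested. Lrig1, which restrains ERBB receptors, had 76.2, 68.3, 61.03 and 52.7 CPM in stem and 32.1, 31.3, 34.4 and 21.4 CPM in TA libraries (log2 fold change 1.13, SE 0.12, adjusted p = 0.00511), and Nrg4, an ERBB4 ligand, 13.3, 18.8, 16.9 and 22.1 CPM in stem and 6.20, 4.15, 4.27 and 6.91 CPM in TA libraries. For Nrg4, the fitted log2 fold change was 1.73 (SE 0.23, adjusted p = 0.00883). Neither gene overlapped between fractions. Egfr itself was at 25.8 to 45.02 CPM in stem and 32.7 to 34.6 CPM in TA libraries and was not called (log2 fold change 0.02, adjusted p = 0.948). In the BMP and TGF-beta list 4 of 23 genes were higher, 1 when any 1 animal was left out, and 1 was lower. The receptor Bmpr1a (log2 fold change 0.21, adjusted p = 0.302) and the target Id1 (log2 fold change -0.03, adjusted p = 0.941) were not called, and Id4, an inhibitor of basic helix-loop-helix factors, was lower at 0.265, 1.34, 0.0353 and 1.21 CPM in stem and 6.22, 12.8, 3.02 and 6.002 CPM in TA libraries (log2 fold change -3.75, SE 0.61, adjusted p = 0.0161), a call lost without BN44 or BO27.

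Eph receptors and ephrins, whose repulsion sorts cells along the crypt axis, gave 3 higher and 1 lower of 13 tested. That is 30.77% called, against 11.42% of all genes tested. With 1 animal left out, 1 or 2 were higher. Efnb2, a ligand of EphB receptors, was lower, with 3.47, 3.36, 2.62 and 7.54 CPM in stem and 15.99, 22.3, 18.4 and 31 CPM in TA libraries. For Efnb2, the fitted log2 fold change was -2.44 (SE 0.21, adjusted p = 0.00328). Efnb1, the other B-type ligand of the named set, was low and not called (log2 fold change -0.38, adjusted p = 0.558). Efna1 was higher (log2 fold change 0.50, SE 0.08, adjusted p = 0.0162), a call lost without BN44, BO27 or BO58.

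Goblet cell genes were lower in stem cells. All 26 goblet cell markers that were tested, of 29 listed, were called lower, with a median log2 fold change of -4.19. Their summed level was 431.9, 669.5, 1042 and 1101 CPM in stem libraries and 15320, 21030, 8743 and 12150 CPM in TA libraries, so each TA library carried goblet cell RNA. Without BO27 15 of them were lower, and without the other animals 20 to 24. In bulk RNA of sorted cells, fewer goblet cells in the stem fraction and less of these RNAs per cell cannot be told apart.

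Atoh1, the factor that starts secretory commitment, had 2.61, 5.05, 2.62 and 10.8 CPM in stem and 41.7, 42.5, 30.7 and 33.6 CPM in TA libraries. For Atoh1, the fitted log2 fold change was -3.06 (SE 0.41, adjusted p = 0.00896). Stem values were low but above 0, highest in BP03. Spdef, which drives goblet and Paneth maturation, was at 1.06, 0.787, 1.02 and 2.22 CPM in stem and 29.9, 15.3, 9.22 and 14.4 CPM in TA libraries (log2 fold change -3.74, SE 0.42, adjusted p = 0.00548), and Creb3l1, a membrane-bound transcription factor of secretory cells, at 2.57, 4.60, 4.21 and 6.48 CPM in stem and 25.4, 24.8, 11.3 and 12.2 CPM in TA libraries (log2 fold change -2.01, adjusted p = 0.0322, lost without BN44, BO27 or BO58). Muc2, the gel-forming mucin, had 2.43, 13.2, 9.51 and 20.6 CPM in stem and 1624, 2113, 490.2 and 1175 CPM in TA libraries. For Muc2, the fitted log2 fold change was -6.96 (SE 0.73, adjusted p = 0.00484). Zg16, a lectin of the mucus layer, had 0, 3.62, 6.43 and 5.24 CPM in stem and 1939, 4758, 1461 and 1595 CPM in TA libraries. For Zg16, the fitted log2 fold change was -9.54 (SE 1.09, adjusted p = 0.00573). Clca1, a mucus-processing protease, had 0, 1.69, 2.97 and 0.980 CPM in stem and 721, 832, 196 and 518 CPM in TA libraries. For Clca1, the fitted log2 fold change was -8.75 (SE 1.04, adjusted p = 0.00643). These 3 were low in stem libraries and abundant in TA libraries, and Zg16 and Clca1 had no count in the stem library of BN44. Capn9, a gut calpain, had 3 counts over the stem libraries and 1934 over the TA libraries, a stem to TA ratio of 0.00148 with an exact 95% interval of 0.000304 to 0.00432. Among 17 tested factors of the secretory list 5 were lower, 3 or 4 with 1 animal left out, and 2 ran the other way: Sox4 (log2 fold change 1.82, SE 0.23, adjusted p = 0.00837) and Sox9 (log2 fold change 1.69, SE 0.24, adjusted p = 0.0108, lost without BO58), both of which are also Wnt targets.

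**Figure D3:**
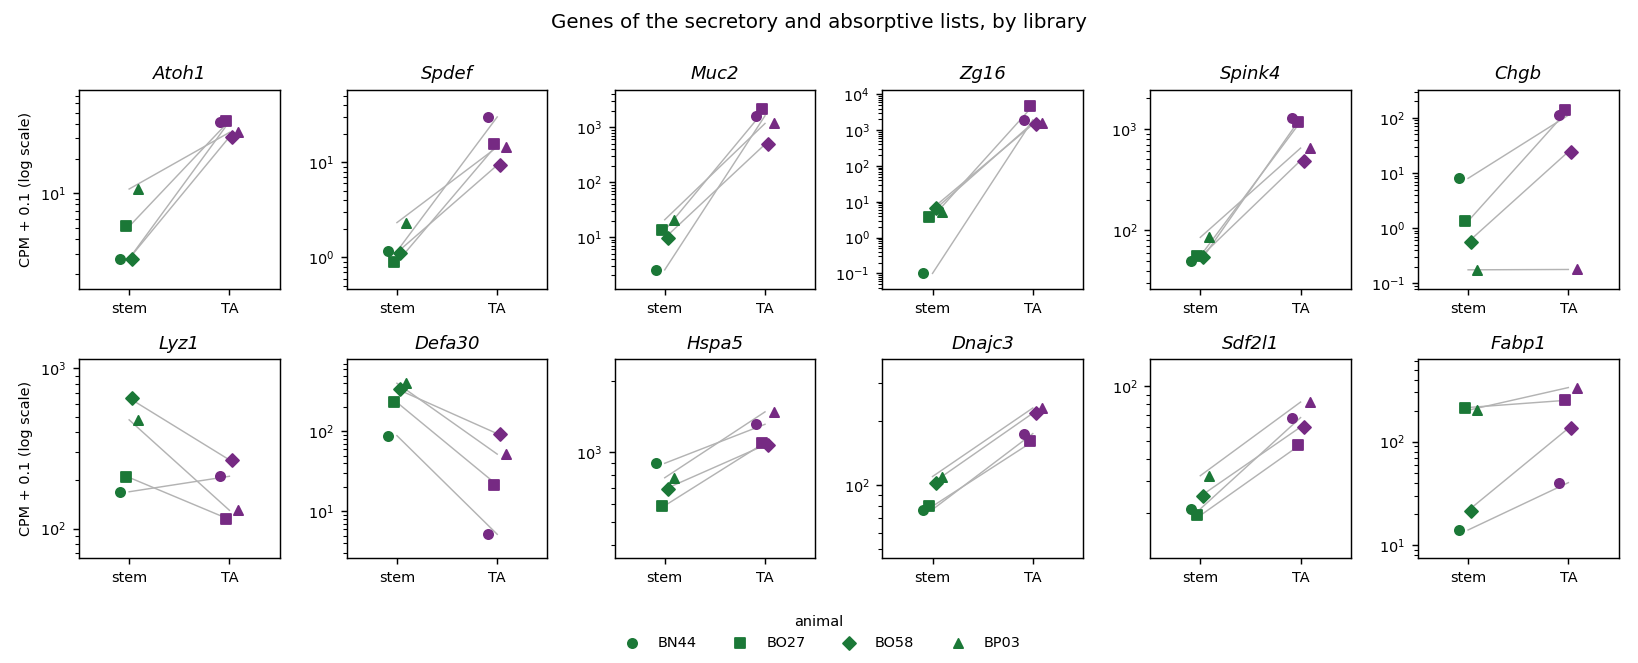
CPM + 0.1 on log axes for secretory and other genes in the 4 stem (left, green) and 4 TA (right, purple) control libraries, with a line joining the libraries of one animal. Goblet genes such as Muc2 and Zg16 climb by orders of magnitude to the right in all 4 animals, whereas Lyz1 shows no common slope.

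Enteroendocrine markers were lower for 4 of 19 tested genes, with a median of -2.49, and they varied widely between animals; the count was 1 without BN44, 2 without BO27 or BO58 and 4 without BP03. Their sum was 332.4, 17.93, 12.97 and 22.61 CPM in stem libraries and 570.8, 693, 84.56 and 29.15 CPM in TA libraries. Chgb, a granin of hormone granules, had 7.89, 1.24, 0.459 and 0.0754 CPM in stem and 112, 141, 24.2 and 0.0779 CPM in TA libraries (log2 fold change -5.22, SE 0.70, adjusted p = 0.00897); both BP03 libraries were near 0, and that TA library fell among the stem values. Chga, its relative, had 0.0408, 0.0715, 0 and 0.565 CPM in stem and 27.5, 51.4, 21.4 and 0.805 CPM in TA libraries (log2 fold change -6.94, adjusted p = 0.0495), and the call was lost without BN44, BO27 or BO58. Tph1, which makes serotonin, was at 0.489, 0, 0.707 and 0 CPM in stem and 23.9, 23.4, 9.84 and 0.727 CPM in TA libraries (log2 fold change -5.80, adjusted p = 0.0181, lost without BN44), and Tac1, a neuropeptide precursor, at 1.06, 0, 0.0353 and 1.88 CPM in stem and 56.7, 39.4, 6.997 and 8.13 CPM in TA libraries (log2 fold change -5.54, adjusted p = 0.0382, lost without BN44, BO27 or BO58).

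Paneth cell markers split: 5 of 22 tested were higher and 3 lower; 5, 3, 2 and 2 were higher and 3, 2, 3 and 3 lower without BN44, BO27, BO58 and BP03 in turn. Their sum was 3102 to 6381 CPM in stem libraries and 6963 to 9312 CPM in TA libraries. Lyz1, the lysozyme of Paneth cells, was at 169.5, 208, 652 and 477 CPM in stem and 212, 114, 268 and 129.8 CPM in TA libraries, with overlapping fractions (adjusted p = 0.136), against 61943 ± 32441 CPM in the Paneth libraries (n = 4). Defa30, an alpha-defensin, was higher, with 88.5, 231, 339 and 400.1 CPM in stem and 5.09, 21.3, 93.8 and 51.99 CPM in TA libraries (log2 fold change 3.07, SE 0.36, adjusted p = 0.00643), against 48957 ± 35966 CPM in the Paneth libraries; alpha-defensin genes are near-identical copies, so single-gene values are uncertain. Pnliprp2, a lipase, had 9.30 to 20.6 CPM in stem and 1.81 to 5.36 CPM in TA libraries (log2 fold change 2.11, adjusted p = 0.00547). Of the lower genes, the antimicrobial lectin Reg3g (log2 fold change -2.01, SE 0.15, adjusted p = 0.00267) and Lypd8 (log2 fold change -1.25, SE 0.13, adjusted p = 0.00478), a protein that binds bacterial flagella, carried much of the sum and are also made by enterocytes. Tuft cell markers gave no call by edgeR among 12 tested genes, with 1 at an unadjusted p below 0.05 and 1 higher by DESeq2; their sums were 30.09 to 45.98 CPM in stem libraries and 24.19 to 36.2 CPM in TA libraries. Dclk1, the tuft cell kinase, had 27 counts over the stem libraries and 8 over the TA libraries.

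Genes of the endoplasmic reticulum (ER) were lower in stem cells. Of 38 tested genes of protein folding, translocation and the unfolded protein response, 27 were lower and none higher, with a median log2 fold change of -0.72; in single animals this median was -0.69, -0.83, -0.67 and -0.78. The sum was 6405 to 8111 CPM in stem libraries and 12980 to 15880 CPM in TA libraries. The goblet markers above fell in the same libraries, with per-animal medians of -5.43, -4.86, -3.11 and -3.08. The part of goblet cells in the decrease of the folding and secretory list was not tested. Without BN44, BO27, BO58 and BP03 in turn, 15, 14, 17 and 19 genes of the list were called lower.

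Xbp1, the transcription factor activated by IRE1 splicing, had 282, 253, 132 and 222 CPM in stem and 501, 457, 351 and 427 CPM in TA libraries. For Xbp1, the fitted log2 fold change was -1.01 (SE 0.12, adjusted p = 0.00603). Dnajc3, a co-chaperone, had 76.8, 79.6, 102 and 109.6 CPM in stem and 174, 160.2, 217 and 229.6 CPM in TA libraries (log2 fold change -1.09, SE 0.08, adjusted p = 0.00267), and Creld2, an ER stress-induced factor, 53.8, 33.6, 57.8 and 58.9 CPM in stem and 111, 81.6, 107 and 111 CPM in TA libraries. For Creld2, the fitted log2 fold change was -1.03 (SE 0.11, adjusted p = 0.00477). In these 3 genes no stem library reached a TA library. Sdf2l1 and Dnajb11, partners of the chaperone BiP, had log2 fold changes of -1.40 and -1.14. Tram1, a translocon component, and Kdelr2, which returns ER proteins from the Golgi, had -0.92 and -0.89. Kdelr3, another such receptor, was near 0 in stem cells at 0, 1.002, 0 and 1.24 CPM in stem and 35.4, 19.9, 6.12 and 20.1 CPM in TA libraries (log2 fold change -5.62, adjusted p = 0.0248, lost without BO27, BO58 or BP03).

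The ER stress element, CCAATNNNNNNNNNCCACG, binds NF-Y and ATF6 or XBP1. It was found, on either strand of the 250 bases before the start, in 8 of 29 listed folding and secretory genes with a RefSeq promoter (27.6%) and in 7 of the 20 that were lower (35.0%). Of promoters of all genes tested 0.179% held it, of lower genes 1.06% (8 of 757) and of higher genes 0.0% (0 of 534). The 8 lower genes include the 7 listed ones, so these counts are not separate results. The stretches around the match are shown for 4 lower genes, with the element in capitals, on the strand of the gene; Hspa5, which encodes BiP, and Calr, calreticulin, were picked after their values were seen, for the match (log2 fold changes -0.75 and -0.86, adjusted p = 0.0061 and 0.0107, with the call of Calr lost without BN44 or BO27):
Hspa5 (chr2:34771975-34772089, forward strand): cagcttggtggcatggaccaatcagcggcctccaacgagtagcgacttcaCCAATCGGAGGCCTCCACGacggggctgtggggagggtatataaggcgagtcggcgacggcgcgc
Dnajc3 (chr14:118937777-118937895, forward strand): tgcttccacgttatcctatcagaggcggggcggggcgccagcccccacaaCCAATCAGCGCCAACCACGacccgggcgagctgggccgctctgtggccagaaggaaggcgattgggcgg
Creld2 (chr15:88819470-88819588, forward strand): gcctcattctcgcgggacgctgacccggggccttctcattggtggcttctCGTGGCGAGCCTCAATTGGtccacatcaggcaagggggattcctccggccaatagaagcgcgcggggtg
Calr (chr8:84847025-84847143, reverse strand): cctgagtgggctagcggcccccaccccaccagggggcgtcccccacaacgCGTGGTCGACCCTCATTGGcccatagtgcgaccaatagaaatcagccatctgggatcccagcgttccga
In Creld2 and Calr the element reads on the opposite strand, so that its letters appear as the reverse complement. A match says only that the letters are present.

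Of 47 tested genes of digestion and absorption 15 were lower and 2 higher, with a median of -0.70, and of 31 tested brush border and cytoskeleton genes 15 were lower and 2 higher, with a median of -0.55. Leaving out 1 animal left 9 to 11 lower enterocyte genes and 10 to 13 lower brush border genes; 2 enterocyte genes were higher in each of these fits, and no brush border gene was. Alpi, the brush border alkaline phosphatase, had 1.73, 19.5, 0.742 and 10.7 CPM in stem and 23.1, 39.3, 28.9 and 84.98 CPM in TA libraries (log2 fold change -3.12, SE 0.66, adjusted p = 0.033, lost without BN44, BO58 or BP03). Slc7a9, a cystine transporter subunit, had 26.6, 24.9, 27.9 and 39.99 CPM in stem and 60.1, 83.7, 76.5 and 128 CPM in TA libraries. For Slc7a9, the fitted log2 fold change was -1.51 (SE 0.13, adjusted p = 0.00328). Mttp, which loads lipid onto lipoproteins, was at 96.9, 117, 81 and 126 CPM in stem and 182, 243, 256 and 310.4 CPM in TA libraries. For Mttp, the fitted log2 fold change was -1.23 (SE 0.14, adjusted p = 0.00544). Mogat2, an acyltransferase of fat absorption, had a log2 fold change of -2.17. Fabp1, the fatty acid binding protein, varied more between animals than between fractions at 13.8, 214, 21.4 and 201 CPM in stem and 40.001, 252, 135 and 334 CPM in TA libraries (log2 fold change -1.26, adjusted p = 0.0894). The 2 higher genes of absorption were Clca4b, at 626, 467, 594 and 337 CPM in stem and 310.1, 224, 313 and 214 CPM in TA libraries (log2 fold change 0.91, SE 0.09, adjusted p = 0.00455) and the metalloprotease gene Mep1a, at 20.1, 22.5, 20.7 and 19.7 CPM in stem and 10.04, 9.39, 6.76 and 9.46 CPM in TA libraries. For Mep1a, the fitted log2 fold change was 1.23 (SE 0.17, adjusted p = 0.01).

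Anxa2, a membrane-binding annexin, separated the fractions by one of the smallest p-values, with 79.7, 78.9, 61.03 and 95.2 CPM in stem and 408, 328, 365 and 399 CPM in TA libraries. For Anxa2, the fitted log2 fold change was -2.27 (SE 0.12, adjusted p = 0.00172). Lgals4, a galectin of the apical membrane, had 2589, 2901, 3533 and 3324 CPM in stem and 5352, 5595, 5751 and 5662 CPM in TA libraries (log2 fold change -0.87, SE 0.07, adjusted p = 0.00328), and Smim24, a small membrane protein, 255, 322, 333 and 419 CPM in stem and 685, 949, 1016 and 1132 CPM in TA libraries. For Smim24, the fitted log2 fold change was -1.51 (SE 0.07, adjusted p = 0.00172). All 3 had no overlap. Of the brush border and cytoskeleton list, Krt19 and Krt8, which encode keratins, were among the lower genes. Krt19 was at 204 to 269.9 CPM in stem and 514 to 667 CPM in TA libraries (log2 fold change -1.31, SE 0.11, adjusted p = 0.00328) and Krt8 at 671 to 1525 CPM in stem and 1730.3 to 2566 CPM in TA libraries (log2 fold change -1.13, SE 0.12, adjusted p = 0.00511). Among the Reg and lectin genes 6 of 16 were lower and none higher, with 4 lower without BN44. Dmbt1, a mucosal scavenger receptor, had 563, 357, 554 and 549 CPM in stem and 2862, 3382, 2389 and 3241 CPM in TA libraries (log2 fold change -2.56, SE 0.19, adjusted p = 0.00267), and the lectin Reg3b 585, 479, 176 and 852 CPM in stem and 1839.7, 781, 852 and 2335 CPM in TA libraries (log2 fold change -1.52, adjusted p = 0.0142, lost without BN44 or BP03). Of 20 claudin and junction genes 4 were lower and none higher (20.0% called, against 11.42% of all genes tested). With 1 animal left out, 2 or 3 were lower.

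Of 35 transcription factors of the intestinal lineage 7 were lower and 3 higher; 4 or 5 were lower and 1 or 2 higher with 1 animal left out. Hnf4g, a nuclear receptor of enterocytes, had 27.3, 88.8, 46.2 and 81.3 CPM in stem and 63.3, 228, 150.2 and 304 CPM in TA libraries (log2 fold change -1.54, SE 0.14, adjusted p = 0.0033); the ranges overlapped because levels differed between animals, but TA was higher in each animal. Klf4, a factor of post-mitotic epithelium, had 4.46, 6.06, 6.15 and 4.22 CPM in stem and 28.1, 30.1, 19.7 and 13.8 CPM in TA libraries (log2 fold change -2.09, SE 0.23, adjusted p = 0.00505), and the homeobox factor Isx 107, 59.1, 111 and 88.4 CPM in stem and 162, 116, 173 and 168 CPM in TA libraries. For Isx, the fitted log2 fold change was -0.79 (SE 0.10, adjusted p = 0.00869). Vdr, the vitamin D receptor, was higher at 293, 273, 212 and 196 CPM in stem and 179, 164, 156 and 109 CPM in TA libraries (log2 fold change 0.68, SE 0.09, adjusted p = 0.01, lost without BN44 or BO27), as was Ehf, an ETS factor, at 290.3, 381, 467 and 427 CPM in stem and 222, 223, 239.8 and 224 CPM in TA libraries (log2 fold change 0.76, adjusted p = 0.0124, lost without BO27 or BO58).

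Of 36 glycolysis and pyruvate genes 14 were lower and 4 higher, with a median of -0.36. Ldha, which turns pyruvate to lactate, had 823, 489, 621 and 657 CPM in stem and 1783, 1189, 1369 and 1489 CPM in TA libraries. For Ldha, the fitted log2 fold change was -1.18 (SE 0.06, adjusted p = 0.00172). Pfkp, a phosphofructokinase, had 17.6, 15.9, 13.3 and 30.8 CPM in stem and 96.4, 87.4, 93.7 and 139 CPM in TA libraries (log2 fold change -2.47, SE 0.14, adjusted p = 0.00172), and Aldoa, an aldolase, 270.4, 266, 215 and 268 CPM in stem and 514, 477, 437 and 551 CPM in TA libraries. For Aldoa, the fitted log2 fold change was -0.96 (SE 0.07, adjusted p = 0.0029). No stem library reached a TA library in these 3. The other lactate dehydrogenase gene, Ldhb, was low and higher in stem cells, at 3.995, 5.34, 6.64 and 5.28 CPM in stem and 1.21, 2.60, 1.26 and 2.34 CPM in TA libraries (log2 fold change 1.57, adjusted p = 0.0361), and Hk2, a hexokinase, was higher (log2 fold change 0.84, adjusted p = 0.0265); both calls were lost whichever animal was left out. With 1 animal left out, 5 or 6 glycolysis genes were lower and 0 or 1 higher.

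Of 66 listed nuclear genes of oxidative phosphorylation 22 were lower and none higher, with a median of -0.27. The sum of the list was 25070 to 29560 CPM in stem libraries and 29240 to 37020 CPM in TA libraries. Ndufa7, a complex I subunit gene outside this list, was called higher (values given below), a call lost without BN44, BO58 or BP03. Cyc1, cytochrome c1, had 352, 341, 262 and 402 CPM in stem and 645, 553, 590.2 and 749 CPM in TA libraries (log2 fold change -0.91, SE 0.09, adjusted p = 0.00477), and Uqcrfs1, the Rieske protein, 592, 601, 573 and 817 CPM in stem and 1042, 966, 1066 and 1245 CPM in TA libraries. For Uqcrfs1, the fitted log2 fold change was -0.75 (SE 0.07, adjusted p = 0.00455). Without BN44, BO27, BO58 and BP03 in turn the count of lower genes was 9, 5, 6 and 12. The 15 genes of the mitochondrial genome gave no call by edgeR, with 1 gene at an unadjusted p below 0.05 and 1 higher by DESeq2, and their sum ran from 102700 to 182600 CPM in stem libraries and from 109900 to 134400 CPM in TA libraries.

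Fatty acid and ketone genes divided, 6 higher and 9 lower of 39. Acot1, an acyl-CoA thioesterase, had 97.3, 103, 45.1 and 67.8 CPM in stem and 34.3, 20.9, 14.8 and 22.3 CPM in TA libraries (log2 fold change 1.75, SE 0.16, adjusted p = 0.00407), and Slc27a2, an acyl-CoA synthetase, 241, 254, 170.5 and 171 CPM in stem and 125, 111, 111 and 89.4 CPM in TA libraries. For Slc27a2, the fitted log2 fold change was 0.92 (SE 0.11, adjusted p = 0.00677). In both genes every stem library was above every TA library. Ehhadh, of peroxisomal oxidation, ran the other way (log2 fold change -0.83, SE 0.11, adjusted p = 0.0081). Without 1 animal in turn, 3 or 4 genes were higher and 2 or 3 lower.

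Cholesterol genes were lower for 20 of 37 and higher for 2, with a median of -0.63. Npc1l1, the intestinal cholesterol transporter, had 4.02, 11.2, 5.09 and 11.1 CPM in stem and 25.7, 46.98, 33 and 33.1 CPM in TA libraries. For Npc1l1, the fitted log2 fold change was -2.25 (SE 0.23, adjusted p = 0.00477). Sc5d, a late enzyme of the synthesis, had 81.4, 69.98, 88.03 and 98.2 CPM in stem and 139, 143, 162 and 185 CPM in TA libraries (log2 fold change -0.90, SE 0.09, adjusted p = 0.00441), again with no overlap. The 2 exceptions were Soat1, given above, and Abca1, the cholesterol exporter, at 3.79, 5.17, 3.64 and 6.44 CPM in stem and 0.380, 0.641, 2.31 and 1.09 CPM in TA libraries (log2 fold change 2.39, adjusted p = 0.0405, lost without BN44, BO27 or BP03). With BN44, BO27, BO58 and BP03 left out in turn, 3, 7, 8 and 11 genes were lower. The sterol regulatory letters TCACNCCAC were found in 1 of 26 promoters of the list, and in 0.905% of promoters of all genes tested. Among lower genes 16 of 757 promoters held them (2.11%), and among higher genes 6 of 534 (1.12%).

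Xenobiotic enzymes were lower for 18 of 39 and higher for 1, with a median of -0.72, and 12 to 15 were lower with 1 animal left out. Ces2e, a carboxylesterase, had 67.7, 107, 88.2 and 126 CPM in stem and 277, 336, 386 and 431 CPM in TA libraries (log2 fold change -1.90, SE 0.11, adjusted p = 0.00172), and Nqo1, a quinone reductase, 37.2, 17.3, 25.7 and 29.5 CPM in stem and 106, 119, 104 and 113 CPM in TA libraries. For Nqo1, the fitted log2 fold change was -2.06 (SE 0.21, adjusted p = 0.00477). Among amino acid genes, Arg2, the mitochondrial arginase, was lower at 43.7, 73.7, 54 and 118 CPM in stem and 334, 527, 473 and 561 CPM in TA libraries (log2 fold change -2.79, SE 0.16, adjusted p = 0.00172) and Abat, GABA transaminase, at 19.3, 19.96, 18.6 and 20.5 CPM in stem and 51.4, 63.7, 70.1 and 52.97 CPM in TA libraries. For Abat, the fitted log2 fold change was -1.59 (SE 0.14, adjusted p = 0.00328). Oat, ornithine aminotransferase, was higher at 5802, 5541, 5745 and 5966 CPM in stem and 3736, 3563, 4554 and 4427 CPM in TA libraries. For Oat, the fitted log2 fold change was 0.51 (SE 0.07, adjusted p = 0.00915). Arg2 and Oat act on neighbouring steps, since arginase makes the ornithine that Oat uses.

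**Figure D4:**
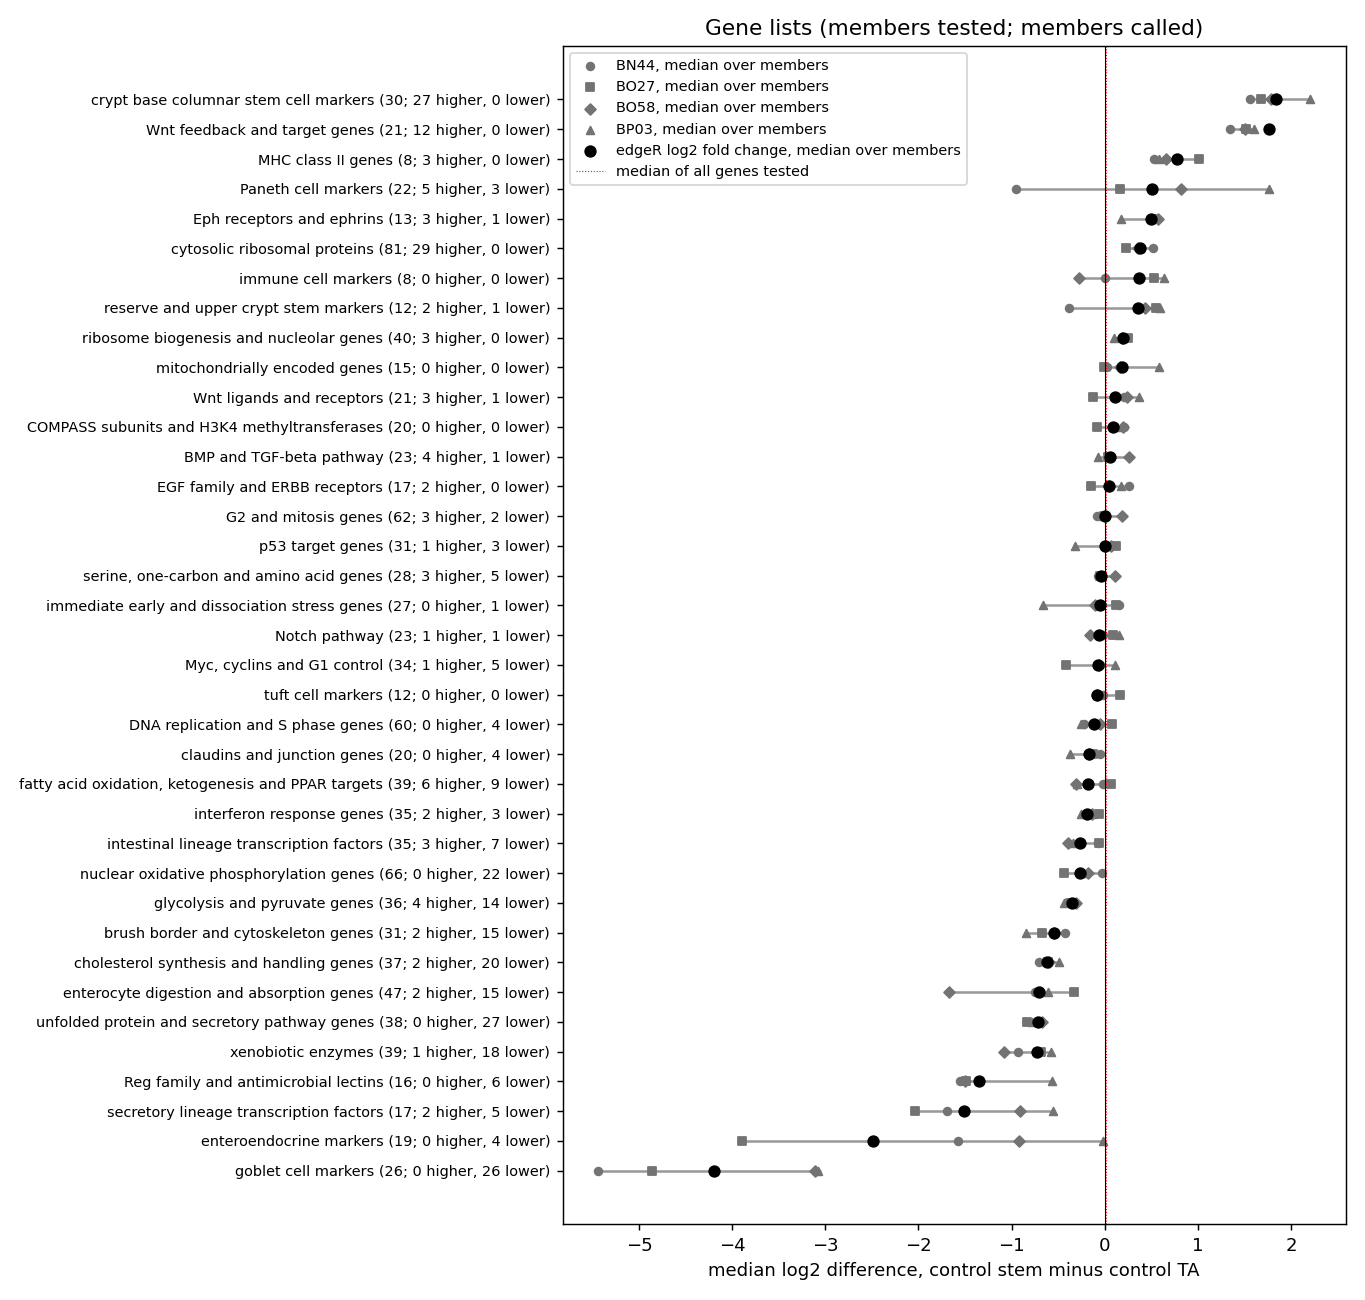
Median log2 difference of stem minus TA over the members of each list with 8 or more members tested, as the median of edgeR fold changes (black) and in each of the 4 control animals (grey), with the members tested and called beside the name. Stem cell and Wnt lists lie at 1.84 and 1.76, goblet cell markers at -4.19, and enteroendocrine, goblet and Paneth cell markers have the largest SD between animals (1.66, 1.21 and 1.14).

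Of 60 DNA replication genes 4 were lower and none higher (6.67% called), with a median of -0.12, and of 62 mitotic genes 3 were higher and 2 lower (8.06% called), with a median of 0.01. Over all genes tested 11.42% were called. With 1 animal left out, 1 to 4 replication genes were lower, and 1 or 2 mitotic genes were higher and none lower. Mki67, the proliferation marker, was at 150.0, 255, 239 and 185 CPM in stem and 142, 236, 209.7 and 219 CPM in TA libraries, with overlapping fractions (log2 fold change 0.03, SE 0.10, adjusted p = 0.866). Rrm2, the small subunit of ribonucleotide reductase, was lower at 105, 114, 165 and 161 CPM in stem and 233, 199, 255 and 384 CPM in TA libraries (log2 fold change -0.96, SE 0.12, adjusted p = 0.00873), and Psrc1, a spindle protein, was higher at 38.04, 32.2, 33.9 and 27.6 CPM in stem and 12.9, 7.35, 10.2 and 13.1 CPM in TA libraries. For Psrc1, the fitted log2 fold change was 1.62 (SE 0.20, adjusted p = 0.00711). Psrc1 and Cenpf (log2 fold change 0.63, adjusted p = 0.0131, lost without BO27 or BO58) were the clearest of the higher mitotic genes.

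Of 34 tested genes of the list of Myc, cyclins and G1 control 1 was higher, 5 were lower and 28 were not called (17.65% called), with a median of -0.075; 1 or 2 were higher and 3 or 4 lower with 1 animal left out. Cdkn1a, which encodes p21, was lower at 10.1, 4.41, 7.92 and 16.3 CPM in stem and 30.5, 37.1, 30.5 and 60.2 CPM in TA libraries. For Cdkn1a, the fitted log2 fold change was -2.11 (SE 0.26, adjusted p = 0.00745). Cdkn2b, which encodes p15, was near 0 in 3 stem libraries, with 0.652, 0.572, 0.389 and 5.80 CPM in stem and 28.1, 39.7, 38.7 and 31.7 CPM in TA libraries (log2 fold change -5.03, SE 0.76, adjusted p = 0.0127, lost without BN44, BO27 or BO58). Rb1, the retinoblastoma protein, was lower (log2 fold change -1.26, SE 0.15, adjusted p = 0.006), and so was Ccnd2, cyclin D2 (log2 fold change -0.57, SE 0.07, adjusted p = 0.00789). Cdk6, the kinase that D-type cyclins activate, was higher at 127, 108, 99.4 and 99.6 CPM in stem and 52.4, 42.2, 45.001 and 27.4 CPM in TA libraries. For Cdk6, the fitted log2 fold change was 1.41 (SE 0.14, adjusted p = 0.00455). E2f2, an activating E2F factor of the replication list, was lower at 2.94, 2.58, 5.44 and 5.54 CPM in stem and 16.3, 17.8, 17.1 and 14.6 CPM in TA libraries (log2 fold change -2.07, SE 0.29, adjusted p = 0.0104, lost without BN44). Of 31 p53 target genes, 3 were lower, Cdkn1a among them, and 1 was higher (12.9% called, against 11.42% of all genes tested). With 1 animal left out, 1 or 2 were lower and none higher.

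Ribosomal protein genes were modestly higher in stem cells. Of 81 genes 29 were higher and none lower, with a median of 0.37, and the sum was 23800, 22480, 26050 and 22690 CPM in stem libraries and 17820, 18900, 19970 and 17200 CPM in TA libraries. The sums did not overlap, but the calls of single genes depended on each animal: 3, 12, 2 and 11 were higher without BN44, BO27, BO58 and BP03, 4 without the animal block, and none when the Paneth libraries joined the fit. Rpl32 had 1263, 1314, 1415 and 1058 CPM in stem and 706, 937, 878 and 665 CPM in TA libraries (log2 fold change 0.67, SE 0.08, adjusted p = 0.00573), and Rps24 335, 253, 320.1 and 250.1 CPM in stem and 156, 162, 180.3 and 140.2 CPM in TA libraries. For Rps24, the fitted log2 fold change was 0.85 (SE 0.10, adjusted p = 0.00573). Ribosomal proteins have many processed copies, and 42 of 180 pseudogenes named after them were also higher, none lower. Of all 2523 pseudogenes tested, 132 (5.23%) were higher and 48 (1.9%) lower. How reads were divided between copies was not tested. Nucleolar and ribosome assembly genes gave 3 higher and none lower of 40 (7.5% called, against 11.42% of all genes tested), with a median of 0.19. With 1 animal left out, 0 or 1 were higher. Npm1, nucleophosmin, had 1187, 954, 1295 and 1238 CPM in stem and 995, 707, 940.4 and 780.1 CPM in TA libraries. Its log2 fold change was 0.45 (edgeR adjusted p = 0.0211, lost without BO27, BO58 or BP03). Long intergenic RNAs were higher for 34 of 367 and lower for 4, or 9.26% and 1.09%, against 5.09% and 6.33% of all genes tested.

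Of 8 MHC class II genes 3 were higher and none lower, with a median of 0.78; 2, 3, 1 and 1 were higher without BN44, BO27, BO58 and BP03. H2-Eb1 had 585, 156, 241 and 258 CPM in stem and 368, 66.3, 119 and 156 CPM in TA libraries (log2 fold change 0.91, SE 0.11, adjusted p = 0.00788), and H2-Aa 681, 166, 263 and 352 CPM in stem and 457, 57.4, 135 and 164 CPM in TA libraries (log2 fold change 1.04, adjusted p = 0.012, lost without BO58 or BP03). BN44 was highest in both fractions, so the ranges overlapped although stem was higher in each animal. Immune cell markers, given above, were near 0 in both fractions. Among 35 interferon response genes 2 were higher and 3 lower (14.29% called, against 11.42% of all genes tested). With 1 animal left out, 2 or 3 were higher and 1 or 2 lower. Ifitm3, an antiviral membrane protein, had 678, 657, 952 and 772 CPM in stem and 235, 206, 308 and 212 CPM in TA libraries (log2 fold change 1.67, SE 0.08, adjusted p = 0.00172), whereas the immunoproteasome subunit Psmb9 had 96.8, 74.8, 81.99 and 94.3 CPM in stem and 175, 113, 127 and 155 CPM in TA libraries. For Psmb9, the fitted log2 fold change was -0.70 (SE 0.09, adjusted p = 0.00798). Of 20 tested genes of the COMPASS complexes and H3K4 methyltransferases 0 were called by edgeR, 4 had an unadjusted p below 0.05 and DESeq2 called 2 higher. Setd1b, the closest relative of Setd1a, was at 19.1, 23.6, 24.4 and 22.5 CPM in stem and 15.6, 26.6, 22.6 and 24.3 CPM in TA libraries (log2 fold change 0.03, adjusted p = 0.925).

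The called genes were also looked up in the Paneth libraries of the same 4 animals. Of 823 genes higher in stem than in TA cells with a Paneth value, 200 (24.3%) had their highest mean of the 3 fractions in Paneth cells and 358 (43.5%) their lowest. Of the 1024 lower genes, 315 (30.8%) were highest in Paneth cells and 342 (33.4%) lowest. The same shares over all genes tested were not computed, so these counts are a description and not a result about the called genes. Lgr5 was at 53.8 ± 6.66 CPM in Paneth libraries, between the other fractions, Olfm4 at 4142 ± 727 CPM, below TA cells, and Muc2 at 744 ± 581 CPM.

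The same stem and TA fractions of the 4 hom mice, BN45, BO25, BO57 and BP04, are separate animals, in which both Setd1a alleles are floxed. Setd1a counts did not show the deletion, with 4.26, 6.85, 7.91 and 4.75 CPM in hom stem libraries and 5.16, 7.63, 5.47 and 5.98 CPM in hom TA libraries, against 4.56, 5.25, 8.13 and 7.87 CPM in het stem libraries and 3.90, 7.74, 4.84 and 5.77 CPM in het TA libraries (CPM scaled over these 16 libraries). In hom animals alone, 618 of 15954 genes were higher in stem cells and 809 lower. Of the 824 genes higher in het stem cells 813 were also tested in hom animals, 713 of them (87.7%) had the same sign and 318 were called in the same direction, which is 38.6% of the het calls and 51.5% of the hom calls. Of the 1024 lower genes 1013 were tested, 985 (97.2%) had the same sign and 473 were called, 46.2% of the het and 58.5% of the hom calls. No gene was called in opposite directions. The median log2 fold change of the higher genes was 0.69 in hom and 0.91 in het animals, and that of the lower genes -0.69 in hom and -0.84 in het animals. These genes were chosen by their calls in het animals, which favours larger het values. A weaker difference in hom animals can therefore not be read from these medians.

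A direct test of whether the stem to TA difference itself differed between hom and het mice, over 17777 genes in 16 libraries with the animal as block, called 0 genes by edgeR (0.0%). There were 1635 genes at an unadjusted p below 0.05, and DESeq2 called 133 higher and 246 lower of 7782. The smallest edgeR adjusted p was 0.243. One of these genes was Anxa3, an annexin, with 8.001, 10.1, 10.4 and 7.49 CPM in hom stem libraries and 14.8, 14.98, 10.7 and 12.1 CPM in hom TA libraries and 2.80, 2.27, 1.75 and 1.04 CPM in het stem libraries and 16.8, 12.4, 10.6 and 16.3 CPM in het TA libraries (interaction 2.32, SE 0.38, adjusted p = 0.243). Another was Ndufa7, a complex I subunit, with 73.5, 107, 134 and 154 CPM in hom stem libraries and 81.7, 112, 166 and 171 CPM in hom TA libraries and 187, 217, 221 and 198 CPM in het stem libraries and 117, 173, 136 and 131 CPM in het TA libraries (interaction -0.75, SE 0.12, adjusted p = 0.243). In Anxa3 the fractions were closer together in hom than in het mice, and in Ndufa7 stem was above TA in het mice and slightly below it in hom mice.

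Most list medians were alike in sign in both genotypes. The stem cell markers had a median log2 fold change of 1.42 in hom and 1.84 in het mice, the goblet markers -4.79 and -4.19, and the folding and secretory genes -0.55 and -0.72. Among the exceptions, Paneth cell markers had a median of -0.07 in hom and 0.51 in het mice. Ribosomal protein genes were another exception, with a median of -0.07 in hom mice (0 higher, 3 lower) and 0.37 in het mice (29 higher, 0 lower). Their summed level was 19660 to 23200 CPM in hom stem, 18740 to 21940 CPM in hom TA, 22280 to 25820 CPM in het stem and 17070 to 19760 CPM in het TA libraries. Nuclear oxidative phosphorylation genes had a median of -0.54 in hom mice (54 of 66 lower) and -0.27 in het mice (22 lower). For ribosomal and oxidative phosphorylation genes, 45 of 81 and 32 of 66 interactions were lower in hom mice (edgeR unadjusted p below 0.05). None passed adjustment by edgeR, and DESeq2 called 29 and 25 lower.

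**Figure D5:**
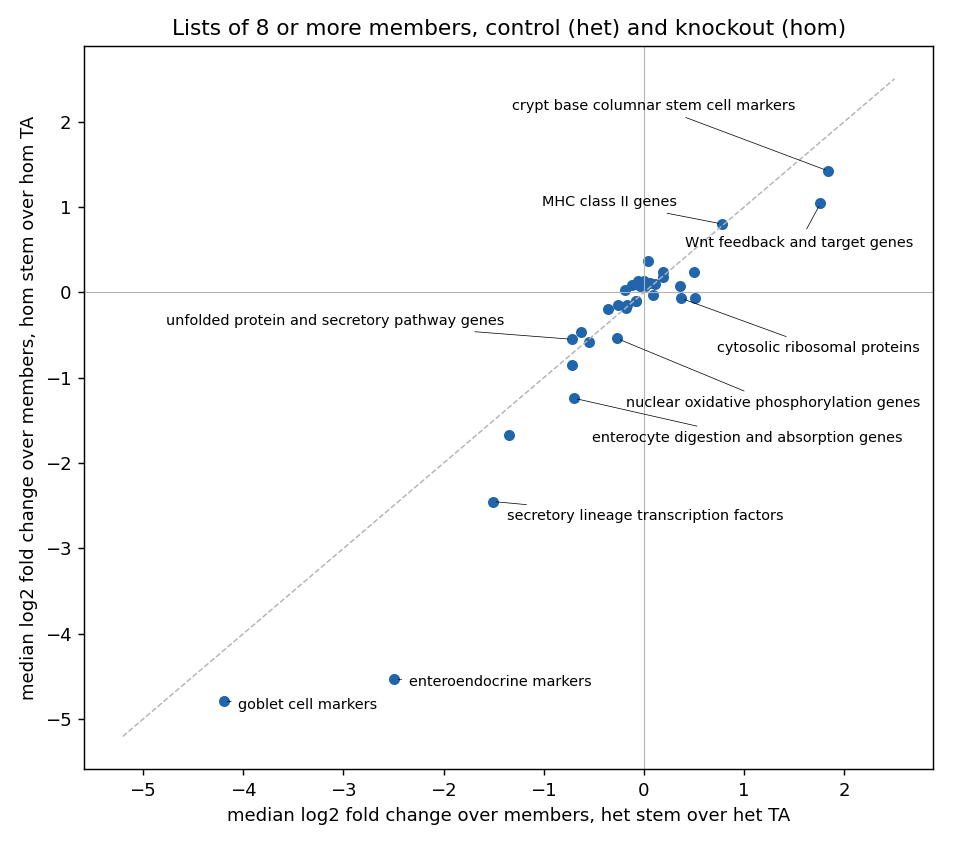
Median log2 fold change of stem over TA for each list with 8 or more members tested, in hom mice (vertical axis) against het mice (horizontal axis); the dashed line marks equal values. Cytosolic ribosomal proteins lie at 0.37 on the het axis and -0.07 on the hom axis. Other lists also lie off the line. Among them are enteroendocrine markers (het -2.49, hom -4.53), secretory lineage transcription factors (het -1.51, hom -2.45) and Wnt feedback and target genes (het 1.76, hom 1.04).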

How the data were processed

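Libraries were made from low-input, poly(dT)-primed cDNA with 17 amplification cycles and 3 ng tagmented, per the labels' protocols. The deposited table held raw gene-level counts for 24 libraries; the authors counted paired fragments on mm10 without strand using featureCounts 2.0.1 and Ensembl 98, at a mapping quality of at least 1, per the file headers. Demultiplexing used bcl2fastq 2.20.0, per the submitters' processing notes; which aligner version was run is not stated there. Without strand, antisense and overlapping genes cannot be told apart, and unique mapping lowers genes with near-identical copies. The 92 spike-in rows (at most 6 counts in a library) were left out, leaving 55421 genes, 55154 of which were given symbols.

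The 8 het stem and TA libraries were compared with edgeR 4.0.16 in R 4.3.3 (TMM, filterByExpr, quasi-likelihood F test, animal as block, Benjamini-Hochberg adjusted p below 0.05); log2 fold changes are stem minus TA with their SE. Both fractions came from the same animals, as the titles say, and deviations of same-animal libraries correlated at 0.286, 0.0864, 0.0974 and 0.0987, so the animal was kept as block. The genotype by fraction interaction was fitted over 16 libraries, and hom animals were also fitted alone. Alternatives were no block, RLE scaling, DESeq2 1.42.0, limma 3.58.1 (voom), other filters, a fold threshold, all 12 het libraries and leaving out each animal. On data simulated for the het comparison (15614 genes), 100 genes were changed by 1 and 100 by 2 on the log2 scale. Of these, 53% and 81% were recovered, and 10 unchanged genes were called. Far fewer genes were changed than the 1848 called in the data, so these shares may not hold there.

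The members and the 39 gene lists were chosen with earlier results of these data known. Genes are named by rule: the 15 largest changes per direction among called genes of at least 5 CPM with the same sign in all 4 animals (leaving out Gm, Rik and -ps symbols), the 5 smallest p, up to 6 per list with called exceptions, and a set of fixed markers; those outside the rule are said to be, and some that it names are not reported here. Intervals on count ratios are exact (Clopper-Pearson, 95%) and cover counting error only. Promoters came from RefSeq, GRCm38.p6.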

Additional observations from a re-analysis of the deposited data

Results flagged for a closer look

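Among 282 groups of 4 libraries of the named genes, 15 had 1 library set apart from the other 3 by most of the group's range. Chance gives about 5%, and the share found was near that, so the values below are a description. In stem libraries of BP03, Cdkn2b was at 5.80 CPM (the others 0.389 to 0.652), Chga at 0.565 CPM (the others 0 to 0.0715), Krt19 at 204 CPM (259 to 269.9) and Uqcrfs1 at 817 CPM (573 to 600.6). In that animal's TA library, Fzd5 was at 100.2 CPM (85.9 to 88.3) and Sox9 at 20.1 CPM (39 to 40.3). In BN44, Chgb was at 7.89 CPM (0.0754 to 1.24) and Id1 at 352 CPM (91.1 to 120.2) in the stem library, and Kdelr2 at 366 CPM (206 to 231) in the TA library. In BO58, Aldoa was at 215 CPM (266 to 270.4) and Dll1 at 30.3 CPM (20.3 to 21.6) in the stem library, and Ehf at 239.8 CPM (222 to 224) in the TA library. In BO27, Dmbt1 was at 357 CPM (549 to 563) in the stem library, and Creld2 at 81.6 CPM (107 to 111) and Zg16 at 4758 CPM (1461 to 1939) in the TA library.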

How the results depend on the processing

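No called gene that the text names changed sign under any alternative; 119 of the 141 named and tested genes were called. All 119 calls held with RLE scaling, DESeq2, limma-voom and no low-count filter, 115 with a mean of at least 5 CPM, 105 with no replicate block, 94 with all 12 het libraries, 87 in every fit that left out 1 animal and 34 against a log2 change of 1. The counts of genes higher and lower, 824 and 1024, were 435 and 578 with no replicate block (412 and 547 of the calls with the block were among them), 1666 and 1898 by DESeq2, 266 and 463 with all 12 het libraries, and 55 and 64 against a log2 change of 1. Leaving out 1 animal gave 250 to 363 higher and 347 to 529 lower genes, from 3 pairs in place of 4; the cause of the other shifts was not tested. The interaction called 0 genes in every edgeR fit and 379 by DESeq2.

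Signs of uncalled genes near 0 turned: Id1 was at 0.15 with no replicate block, 0.074 by voom, 0.004 at 5 CPM or more, 0.012 with 12 libraries and -0.249 to 0.073 with 1 animal left out, positive without BO27, BO58 or BP03. With 1 animal left out, Egfr ranged from -0.116 to 0.16 (negative without BO58 or BP03), Ephb2 from -0.131 to 0.042 (positive without BO27), Mki67 from -0.018 to 0.125 (negative without BO58) and Setd1b from -0.057 to 0.1 (negative without BN44). Of the medians of 39 lists, 440 recomputed values stayed within the SD between animals and 26, in 11 lists, did not. Genes with few counts, such as Ptprc and Dclk1, were removed by the low-count filter and not tested, and depth limits what can be said of them.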

Other observations

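Markers proposed for reserve or upper crypt stem cells did not move as one. Of 12 tested, 2 were higher (Lrig1 and Sox4) and 1 lower (Krt19), or 25.0% called, against 11.42% of all genes tested. Hopx, a homeodomain protein used to mark such cells, had 4.44, 7.25, 6.86 and 5.54 CPM in stem and 3.44, 3.21, 2.28 and 2.29 CPM in TA libraries, low in both fractions and not called (log2 fold change 1.10, adjusted p = 0.062). Msi2, an RNA-binding protein, was at 17.2 to 22.5 CPM in stem and 11.1 to 16.5 CPM in TA libraries (log2 fold change 0.54, adjusted p = 0.0541). Clu, clusterin, had 479 counts over the stem libraries and 24 over the TA libraries, a ratio of pooled CPM of 19.0 with an exact 95% interval of 12.6 to 29.9 for counting error alone, but was not called over the animals (log2 fold change 3.95, adjusted p = 0.137).

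Immediate early and dissociation stress genes gave 1 lower gene, Klf4, and none higher among 27 tested, with a median of -0.05. That is 3.7% called, against 11.42% of all genes tested. Serine, one-carbon and amino acid genes gave 3 higher and 5 lower of 28 (28.57% called), with a median of -0.04. With 1 animal left out, 1 was higher and 2 or 3 were lower.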
